A study of Mus musculus with 2 samples.

Results

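Chromatin accessibility was described at 10 genes of the liver sinusoidal endothelium, namely Stab1, Flt1, Flt4, Gata4, Oit3, Dnase1l3, Wnt2, Rspo3, Sox18 and Erg. In ATAC-seq, a transposase inserts sequencing adaptors into accessible chromatin, so that reads pile up at open regions such as promoters and enhancers. A region was taken for a gene when its closest transcription start site (TSS) was that of the gene, at any distance, and this gave 39 of the 69549 distinct regions in the table. All 10 genes had at least 2 regions, and 8 regions, at 7 genes, were promoter regions with their centre within 1000 bp of the TSS. One library was made from pooled livers of 4 Mettl3 flox/flox mice, the controls without Cre, and one from pooled livers of 4 Mettl3-HKO mice, which carry the same floxed alleles plus Alb-Cre+/-. They are called the control library and the HKO library below. All mice were on the C57BL/6 background, fed normal chow and 8 weeks old. Albumin-driven Cre acts in hepatocytes, so the deletion was aimed at hepatocytes and not at endothelium, Cre itself differed between the groups, and the nuclei came from whole liver and not from sorted endothelium. With 1 pooled library per group there was no replicate error and no test across mice, and each difference below is one between these 2 libraries.

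Sinusoidal endothelial cells line the liver capillaries. They are fenestrated, lack a continuous basement membrane, and clear waste macromolecules from the blood through scavenger receptors such as stabilins. Their growth and upkeep depend on VEGF receptors, their identity on transcription factors of the GATA, SOX and ETS families, and their Wnt ligands and R-spondins maintain the zonation of the neighbouring hepatocytes. Of the 10 genes, Stab1 encodes a scavenger receptor, Flt1 and Flt4 encode VEGF receptors, and Gata4, Sox18 and Erg encode transcription factors. Dnase1l3 encodes a secreted nuclease, Oit3 a secreted or surface protein with a zona pellucida domain, Wnt2 a Wnt ligand, and Rspo3 a secreted enhancer of Wnt signalling. Some of them are not restricted to this cell type in liver, since Gata4 is also known from stellate cells and hepatocytes and Rspo3 from stellate cells.

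RefSeq start site windows, 250 bases before to 50 after a start, were at hand for 5 of the 10 genes (7 windows on GRCm38.p6, of which 3 belong to Erg). Regions overlapped 3 of these windows, 1 each at Flt1, Wnt2 and Erg, and none overlapped those of Stab1 and Flt4 or the other Erg windows. A stretch of each window that lay inside the accessible region is printed here, to show the upstream sequence of the starts that reads covered. For Flt1 and Erg it runs up to the start on which the window is set, and for Wnt2 it stops short of exon 1 of the table, 141 bases upstream of that start. The RefSeq genes of Flt1 and Wnt2 reach farther out, to 147726438 and 18032772, so these stretches also lie inside them, and the Erg start lies in intron 2 of the gene as the table has it. It is chr5:147726012-147726261 for Flt1, chr6:18030586-18030681 for Wnt2 and chr16:95459349-95459578 for Erg, all on the minus strand and written 5′ to 3′, with matches to the searched motifs in capitals.
Flt1: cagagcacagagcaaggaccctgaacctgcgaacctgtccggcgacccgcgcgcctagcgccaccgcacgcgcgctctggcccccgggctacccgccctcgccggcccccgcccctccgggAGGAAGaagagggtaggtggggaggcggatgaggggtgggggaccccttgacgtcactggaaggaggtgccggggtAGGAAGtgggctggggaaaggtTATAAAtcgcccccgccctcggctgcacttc
Wnt2: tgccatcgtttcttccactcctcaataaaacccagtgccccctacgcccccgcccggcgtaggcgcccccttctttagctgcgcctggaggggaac
Erg: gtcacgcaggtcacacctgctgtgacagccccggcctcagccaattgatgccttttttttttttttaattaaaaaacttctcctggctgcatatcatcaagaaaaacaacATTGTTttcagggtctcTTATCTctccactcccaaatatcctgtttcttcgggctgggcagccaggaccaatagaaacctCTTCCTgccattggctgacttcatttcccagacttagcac
The motifs searched, on both strands, were AGGAAG for the ETS family, TGATAA for the GATA family, AGATAA as a second form for that family, AACAAT for the SOX family and TATAAA for the TATA box. In the printed Flt1 stretch AGGAAG occurs at 2 places and TATAAA at 1, and the capitals of the Erg stretch mark, on the opposite strand, 1 match each to the SOX, the second GATA and the ETS motif in that order. The Wnt2 window holds 1 match to the first GATA motif, which lies outside the 96 printed bases, and those hold no searched motif. Of the 32851 promoter windows of all genes, 35.4% hold the ETS motif, 9.05% and 11.2% the first and second GATA motifs, 10.7% the SOX motif and 13.6% the TATA box, so these matches are common and describe the sequence only. The whole windows differed in base composition, with 70.7% G and C at Flt1 and 46.0% at this Erg start, against a median of 52.7% over all windows.

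The regions of these genes were more often higher in the HKO library than regions in general, but they fell into a larger higher group and a smaller lower group. Each ratio is the log2 of the HKO value over the control value, from counts with 1 read added, scaled by library totals of 52826209 reads (control) and 58038309 reads (HKO) that were worked out from the RPM values of the authors. Their median over the 39 regions was 0.75, against −0.38 over all regions. Of the 39 regions, 15 were at least 2-fold higher in the HKO library, while 13.2% of all regions were, and 8 were at least 2-fold lower, against 18.3% of all regions. The 95% Clopper-Pearson interval of the ratio lay above 0 for 24 regions and below 0 for 9, compared with 21.1% and 48.7% of all regions. These intervals cover counting error only. The authors kept duplicate reads in peak calling, and whether the counts also hold duplicates, which are not independent molecules, is not given. Another scaling moved this split. With the median of all regions set to 0, 21 regions reached a 2-fold higher value and 1 a 2-fold lower one, against 20.0% and 7.89% of all regions. With totals of reads on regions 24 and 0 did, against 22.9% and 5.75%. With library totals, leaving out Erg left 9 such higher regions, and leaving out Oit3 left 4 such lower ones.

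How a region entered the table bears on these counts. A region was listed when a peak was called in at least 1 library, and 18 of the 39 had a peak in the HKO library only, 19 in both and 2 in the control library only. Over all regions the shares were 21.5%, 61.7% and 16.8%, so peaks of the HKO library alone were more frequent among the 39, at 46.2%. Regions with a peak in the HKO library alone were selected by a high signal there, and 94.6% of all such regions had a ratio above 0. All 18 of these did, and 12 of the 18 were at least 2-fold higher, against 53.3% of all regions of that kind. Among the 19 with a peak in both libraries the median ratio was 0.11. A 2-fold higher value was reached by 3 of them (2.91% of all regions with a peak in both) and a 2-fold lower one by 7 (15.5%). The 3 were an Erg, a Flt1 and a Flt4 region, all in introns. Weak regions also had higher ratios than strong ones, so each region was set beside the 1000 regions nearest to it in mean RPM. The median difference from the median of those neighbours was 0.79, and 30 of the 39 regions lay above it. When the neighbours also had their peaks in the same libraries, the difference was 0.26, with 24 regions above. When they were matched on the signal of the control library alone, it was 0.43. In the upper 50% of mean signal, which held 12 of the 39 regions, the median ratio was −0.61 and 6 regions were at least 2-fold lower, beside a median of −0.57 and 20.3% over all regions of that signal.

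**Figure D1:**
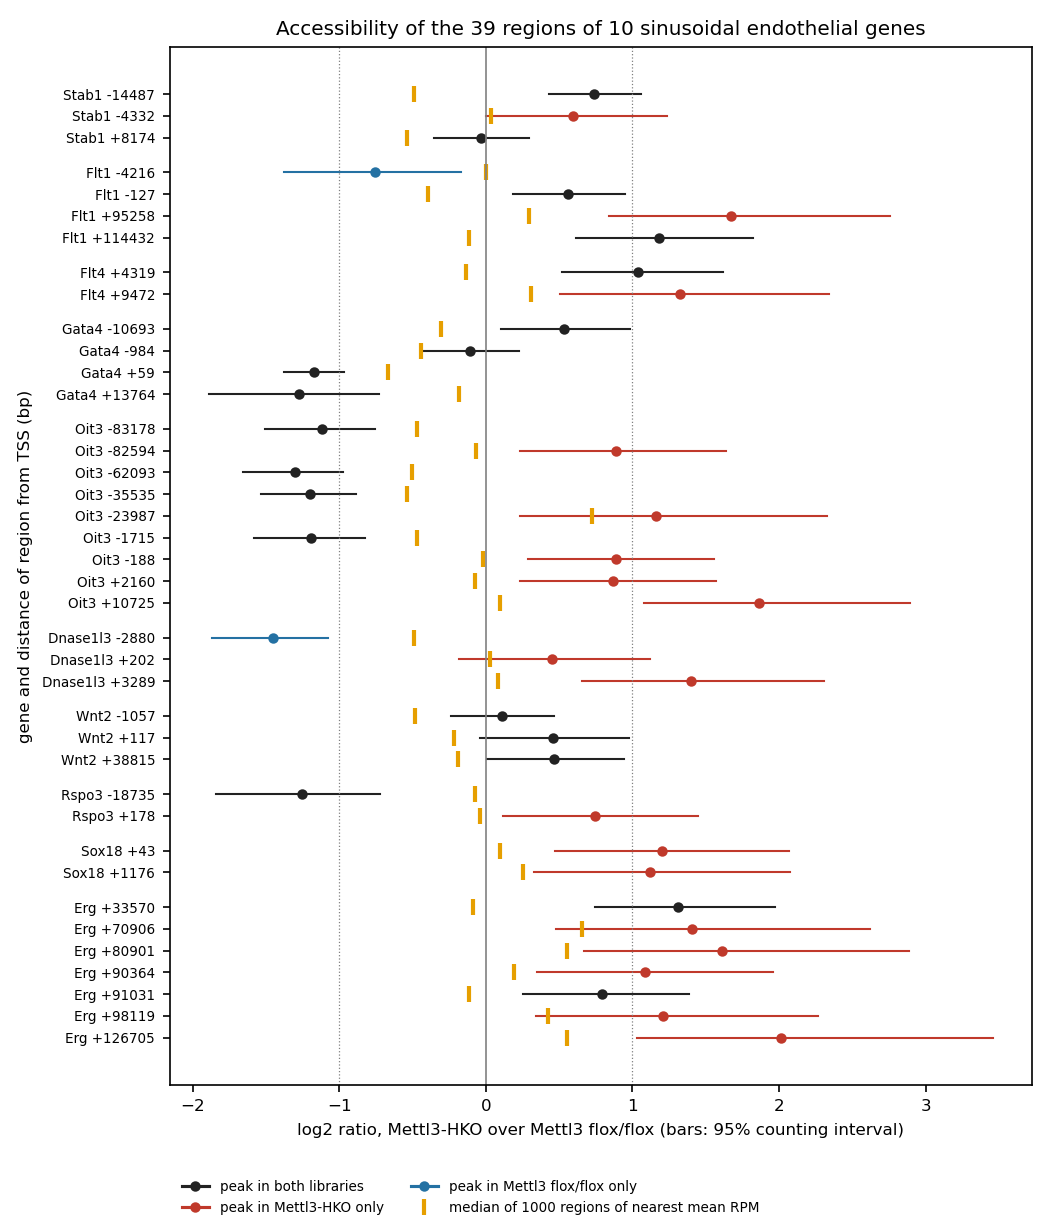
Log2 ratio of each of the 39 regions (x axis) by gene and distance from the TSS in bp (y axis, upstream negative), with points coloured by the library in which a peak was called, bars for the 95% counting interval and orange ticks for the median of the 1000 regions of nearest mean RPM. All 7 Erg regions lie above 0, whereas the 9 Oit3 regions split into 5 above and 4 below.

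The VEGF receptor genes had their highest ratios inside introns. Flt1, on chromosome 5 from 147561604 to 147726011, encodes VEGFR1, which binds VEGF-A and limits its access to the main signalling receptor. Its promoter region, from 147725702 to 147726575 and reaching into exon 1, had 96 counts in the control library and 156 in the HKO library, for a ratio of 0.56 with a 95% interval from 0.19 to 0.95. In intron 15, 114432 bp downstream of the TSS, counts were 34 and 86, a ratio of 1.18 (0.61 to 1.82). This region had a peak in both libraries and stood at the 97.8th percentile of regions of the same signal and the same peak calls. In intron 14 counts were 13 and 48, a ratio of 1.67, with a peak in the HKO library only and at the 83.9th percentile of its kind. The remaining Flt1 region, 4216 bp upstream, went the other way with 62 and 40 counts, a ratio of −0.76 (−1.38 to −0.17) and a peak in the control library only, at the 69.8th percentile of regions of its signal and peak calls.

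Flt4 encodes VEGFR3, the receptor for VEGF-C and VEGF-D, and lies on chromosome 11 from 49609263 to 49652739. No promoter region was listed for it. Both of its regions lay in intron 1. The nearer, 4319 bp downstream of the TSS, had 42 counts in the control library and 96 in the HKO library, a ratio of 1.04 (0.52 to 1.62), and a peak in both. The farther, at 9472 bp, had 15 and 43 counts and a ratio of 1.32 (0.51 to 2.34). The farther one had a peak in the HKO library only. Both intervals lay above 0, and among regions of the same signal and peak calls the nearer stood at the 94.2nd and the farther at the 70.3rd percentile.

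Stab1 encodes stabilin-1, a scavenger receptor of sinusoidal endothelium and of some macrophages, and lies on chromosome 14 from 31139013 to 31168641. No promoter region was listed. The region centred in intron 12 of Stab1 had nearly equal RPM, 2.99 in the control library and 2.93 in the HKO library, from 157 and 169 counts, and its ratio of −0.03 (−0.35 to 0.29) turned positive once the median of all regions was set to 0. Both upstream regions are centred in introns of the neighbouring gene Nisch. The one 14487 bp upstream had 131 and 241 counts, a ratio of 0.74 (0.43 to 1.06) with a peak in both libraries, and stood at the 93.1st percentile of its signal. The other, 4332 bp upstream, had 37 and 62 counts and a ratio of 0.59 whose interval reached 0, at the 26.4th percentile of regions of its signal and peak calls.

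Among the transcription factor genes, Erg and Sox18 were higher at every region and Gata4 was not. Erg, an ETS factor that maintains endothelial identity and junctions, spans chromosome 16 from 95359169 to 95530365 in the table and had 7 regions, 6 in intron 2 and 1 in intron 3, with none near its TSS. Counts ranged from 8 to 42 in the control library and from 34 to 89 in the HKO library. The ratios ran from 0.80 to 2.02 with every interval above 0, but 5 of the 7 had a peak in the HKO library only, and beside regions of the same signal and peak calls those 5 stood between the 60.0th and 88.7th percentiles. A region 33570 bp downstream of the TSS, the one with the highest enrichment of the 7 in both libraries, had 32 and 89 counts, and its ratio of 1.31 (0.74 to 1.97), with a peak in both libraries, was at the 99.5th percentile among regions of the same signal and peak calls. The highest ratio, 2.02 (1.03 to 3.46), came from 8 and 39 counts at 126705 bp. The lowest, 0.80 (0.26 to 1.39), belonged to the region of highest mean RPM, at 91031 bp with 42 and 81 counts, where peaks were called in both. One of the intron 2 regions, from 95459340 to 95459578, covers the RefSeq start whose sequence is printed above and had 11 and 34 counts, a ratio of 1.41 (0.48 to 2.62).

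Sox18, a SOX factor of blood and lymphatic endothelium, is a short gene on chromosome 2 from 181669836 to 181671640. Its promoter region, centred in exon 1 at 43 bp from the TSS, had 20 counts in the control library and 52 in the HKO library, a ratio of 1.20 (0.47 to 2.07). On library totals it was the only one of the 8 promoter regions that was at least 2-fold higher. The region in the last exon of Sox18 had 17 and 42 counts and a ratio of 1.12 (0.33 to 2.07). Both had a peak in the HKO library only, and against regions of that kind they stood at the 64.8th and 62.1st percentiles.

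Gata4, a zinc finger factor required for the sinusoidal endothelial programme, lies on chromosome 14 from 63198922 to 63245271. Its promoter region over the TSS had the highest mean RPM of the 39, with a fold enrichment over the genome of 27.2 in the control library and 12.1 in the HKO library. Counts there were 615 and 300, a ratio of −1.17 (−1.38 to −0.97), at the 12.9th percentile of regions of its signal. The next region, only 160 bp away and centred 984 bp upstream of the TSS, had 149 and 152 counts, a ratio of −0.11 (−0.44 to 0.23) that also turned positive on that scale. In intron 2 counts were 85 and 38, a ratio of −1.28 (−1.89 to −0.73), whereas the region 10693 bp upstream had 72 and 115 counts and a ratio of 0.53 (0.10 to 0.99). The RefSeq gene of Gata4 reaches farther out, to 63271712, so that both upstream regions lie inside the RefSeq gene.

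The secreted products were mixed. Oit3, on chromosome 10 from 59422958 to 59441778, had 9 regions, and the 5 higher and 4 lower ones were interspersed along the locus. The promoter region, 188 bp upstream of the TSS, had 33 counts in the control library and 68 in the HKO library, a ratio of 0.89 (0.29 to 1.55). Both regions centred in its introns were higher as well, with 30 and 61 counts in intron 1 and 14 and 59 in intron 4, the latter at a ratio of 1.86 (1.08 to 2.90). These 3 had a peak in the HKO library only, and among regions of the same signal and peak calls they stood at the 39.1st, 40.7th and 85.5th percentiles, so the promoter and intron 1 regions lay below the median of their kind. Only 1113 bp beyond the promoter region, however, a region with 186 and 89 counts had a ratio of −1.19 (−1.58 to −0.83).

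The other 5 Oit3 regions lie 23987 to 83178 bp upstream, inside introns of the gene Mcu. The strongest of all 9, 35535 bp upstream, had 252 and 120 counts, a ratio of −1.20 (−1.53 to −0.89), and the lowest ratio, −1.30 (−1.66 to −0.97), came from 237 and 105 counts at 62093 bp. Closest together were the pair in Mcu intron 1, separated by 176 bp, of which one had 179 and 90 counts and a ratio of −1.12 and the other 27 and 56 counts and a ratio of 0.89, with intervals on opposite sides of 0. All 4 lower Oit3 regions had a peak in both libraries and a fold enrichment of 16.5 to 21.2 in the control library. The 5 higher ones had a peak in the HKO library only. Of 29 pairs of neighbouring regions of the same gene, 7 had intervals on opposite sides of 0, and 5 of these belonged to Oit3. Such pairs were not counted over all genes, so whether 7 of 29 is unusual cannot be told.

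**Figure D2:**
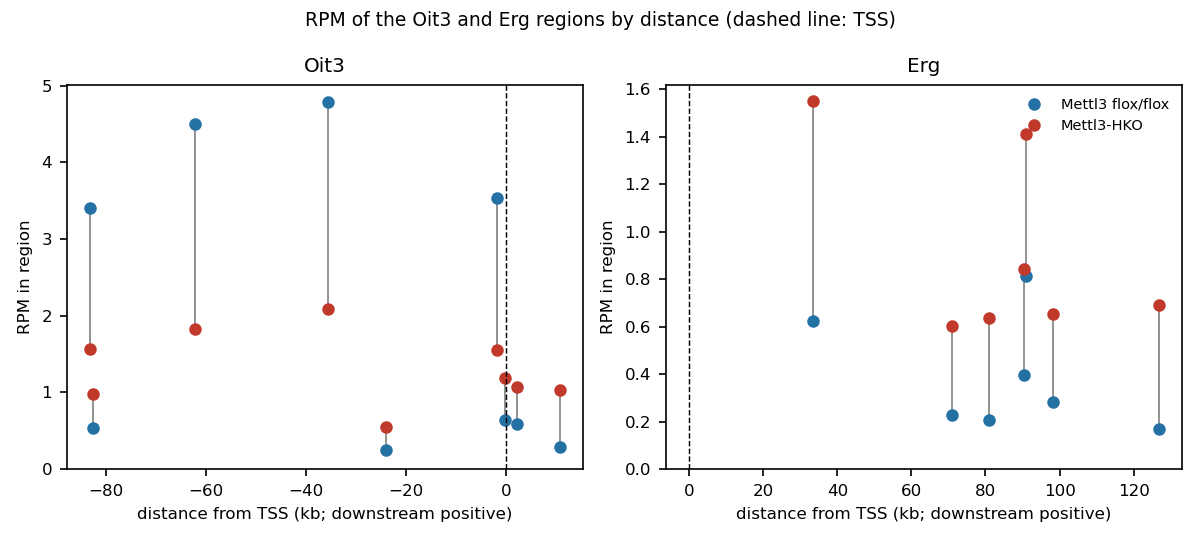
RPM of each region (y axis, from 0) against its distance from the TSS in kb (x axis) for Oit3 and Erg, with blue points for the control library, red points for the HKO library and a line joining the points of 1 region. At Oit3 the regions that are strong in the control library are lower in the HKO library and the weak ones higher, whereas at Erg all 7 are weak and higher.

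Dnase1l3, whose product digests DNA released from dying cells, lies on chromosome 14 from 7964533 to 7994573. Its promoter region, centred in the 5′ UTR, had 35 counts in the control library and 53 in the HKO library, a ratio of 0.45 whose interval of −0.18 to 1.12 held 0, at the 15.8th percentile of regions of its signal and peak calls. In intron 1 counts were 18 and 54, a ratio of 1.40 (0.66 to 2.31), at the 73.9th percentile of its kind. Both of these regions had a peak in the HKO library only. The region 2880 bp upstream of the TSS had 191 and 76 counts, a ratio of −1.45 (−1.87 to −1.07), the lowest of the 39, with a peak in the control library only and at the 34.7th percentile of its kind.

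Of the genes that act on Wnt signalling, Wnt2 differed little and Rspo3 in both directions. Wnt2, a ligand made by endothelium near the central vein, lies on chromosome 6 from 17988940 to 18030585, and all 3 of its regions had a peak in both libraries. Counts were 56 and 85 at the promoter, a ratio of 0.46 (−0.04 to 0.98), and 65 and 99 in the last intron, a ratio of 0.46 (0.005 to 0.95). The strongest, 1057 bp upstream, had 127 and 151 counts and a ratio of 0.11 (−0.24 to 0.47). The last of these was well within counting error and the other 2 were near its limit, although each ratio exceeded the median of regions of its signal by 0.60 to 0.68. Rspo3, on chromosome 10 from 29452418 to 29535867, had 31 and 58 counts at its promoter region, which is centred in the 5′ UTR, a ratio of 0.75 (0.11 to 1.45), at the 31.8th percentile of regions of its signal and peak calls. Its other region, 18735 bp upstream in the last intron of a gene without a symbol, had 90 and 41 counts, a ratio of −1.25 (−1.84 to −0.72).

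Over the 8 promoter regions of the 10 genes, 6 ratios were above 0 and the median was 0.51, beside 16.1% and a median of −0.56 over all 14387 promoter regions. The Sox18 promoter passed 2-fold in the higher direction and the Gata4 promoter over the TSS in the lower, as did 4.07% and 16.3% of all promoter regions. These calls depend on the processing. With the median of all regions set to 0, the promoters of Oit3 (1.26) and Rspo3 (1.12) also passed, and that of Gata4 (−0.79) did not. With totals of reads on regions Flt1 (1.07) passed too. With 10 reads added the Sox18 ratio was 0.91, short of 2-fold. At 4 genes, Oit3, Dnase1l3, Rspo3 and Sox18, the promoter peak was called in the HKO library only, and at the 4 promoter regions with a peak in both libraries (2 of Gata4 and those of Flt1 and Wnt2) the median was 0.18, beside −0.58 over all promoter regions of that kind. For the 4 with a peak in the HKO library only it was 0.82, beside 0.81 over all promoter regions of that kind, and 1 of the 4 was at least 2-fold higher, beside 41.1%.

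Position relative to the gene went with the direction of the ratio, in a grouping that was made after the values had been seen. Of the 24 regions that overlapped their own gene, 21 had a ratio above 0 and the median was 1.10, against 26.1% and −0.49 over all 26237 such regions. At least 2-fold higher were 14, against 8.69% of all regions inside their own closest gene, and at least 2-fold lower were 2, both of Gata4, against 17.5%. The peak calls move with this, since 14 of the 24 had a peak in the HKO library only, against 15.2% of all regions inside their own gene. Among the 10 with a peak in both libraries, 7 were above 0 with a median of 0.51, beside 16.1% and −0.55 over all regions of that kind. Of the 15 regions outside their own gene, 1 passed 2-fold in the higher direction and 6 in the lower, against 16% and 18.7% of all such regions. Their median was −0.11, which is not below the median of −0.26 over all such regions. Single genes weigh on the grouping, since 4 of these 6 lower regions belonged to Oit3 and 6 of the 14 higher ones inside their own gene to Erg. The grouping depends on the annotation, since 3 of the 15, at Gata4 and Wnt2, lie inside the gene as RefSeq has it, and without them the median of the other 12 was −0.94.

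Signal in the control library also went with the ratio. Per length of sequence, as fold enrichment over the mean of the genome, the 39 regions had a median of 6.63 in the control library and 8.59 in the HKO library, beside 11.4 and 9.87 over all regions. All 9 regions with an enrichment in the control library at or above the median of all regions had a ratio below 0, and 8 of them were at least 2-fold lower. Of all regions of that class, 9.92% had a ratio above 0 and 25.3% were at least 2-fold lower. The 9 belong to Gata4, Oit3, Dnase1l3 and Rspo3. Of the other 30 regions, 28 had a ratio above 0, beside 60.4% of all regions below the median. The enrichments ran from 1.53 to 27.2 in the control library and from 4.87 to 16.4 in the HKO library. Peak calls bear on the low ends, and for the 19 regions with a peak in both libraries the ranges were 4.48 to 27.2 and 5.44 to 16.4. Across the 39 regions the ratio and the enrichment in the control library had a Spearman correlation of −0.93, and across all regions of −0.63. The enrichment is the divisor of the ratio, so this is a description of regions that share 2 libraries.

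**Figure D3:**
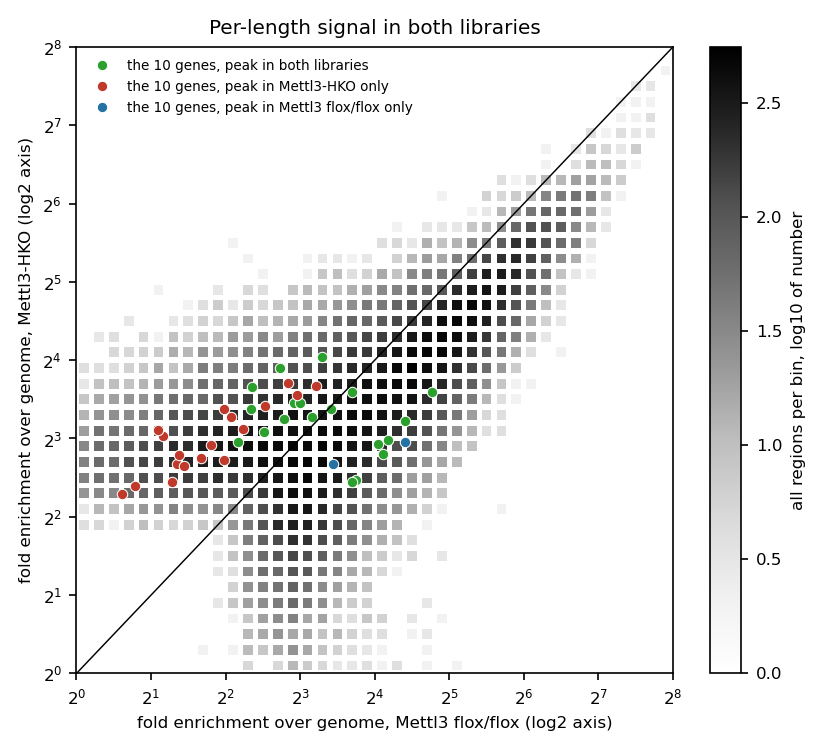
Fold enrichment over the genome in the control library (x axis) and the HKO library (y axis), both on log2 axes, with grey squares for the number of all regions per bin, coloured points for the 39 regions by peak call and a line of equal enrichment. The 39 regions span 1.53 to 27.2 on the x axis and 4.87 to 16.4 on the y axis, and the 19 with a peak in both libraries span 4.48 to 27.2 and 5.44 to 16.4.

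Other genes of the same cell type and pathway were read from lists that were also chosen with earlier results known. Higher and lower mean at least 2-fold here, as for 13.2% and 18.3% of all regions, whose median was −0.38. The pan-endothelial genes resembled the 10 most closely in their median, with 12 of 25 regions at least 2-fold higher, 1 lower and a median ratio of 0.77, from 1.83 for the median of the Cdh5 regions, which encodes the junction protein VE-cadherin, to −0.54 for Tie1, a receptor-like kinase. Angiocrine factors, signalling molecules ascribed to endothelium, had a median of 0.83, with 15 of 32 regions higher and 2 lower, from Dll4, a Notch ligand, at 1.17 to Wnt9b at −0.49. Of these 32 regions, 15 belonged to Angpt2. Sinusoidal surface and secreted genes had a median of 0.50, with 8 of 21 regions higher and 2 lower. Mrc1, the mannose receptor, was highest there with a single region at 2.37, from 25 and 147 counts, and Gpr182 lowest at −0.37.

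Endothelial transcription factors had a lower median, −0.22, with 12 of 67 regions higher and 10 lower. These values are near those of all regions, with a median of −0.38 and 13.2% higher and 18.3% lower. The transcription factor genes ranged from Sox7, at a median of 1.48 over its 5 regions, which themselves ran from −1.25 to 2.11, to Lyl1 at −0.56. VEGF ligands, receptors and co-receptors stood at −0.61, with 4 of 48 regions higher and 14 lower, and 25 of the 48 belonged to Vegfa, the main VEGF ligand, which parenchymal cells make. The receptor gene Kdr was highest in that list at 1.30 and the ligand gene Vegfc lowest at −1.05. A peak in the HKO library only was listed for 12 of the 25 pan-endothelial and 15 of the 32 angiocrine regions, but for 18 of the 67 transcription factor and 9 of the 48 VEGF regions. Of all regions, 21.5% had such a peak. For continuous endothelium the median was 0.05 over 16 regions, from Plvap at 0.99 to Vwf at −0.14.

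Lists of other liver cell types moved partly with these values. The hepatocyte list, of which all 8 genes had regions, had a median of −0.52 over 69 regions, beside −0.38 over all regions. Of the 69, 2 were at least 2-fold higher and 11 lower, against 13.2% and 18.3% of all regions. A peak was called in the HKO library only for 8, against 21.5% of all regions, and in both libraries for 52. Over all regions with a peak in both the median was −0.47. The summed signal of the list was 557 RPM in the control library and 416 in the HKO library. The 39 regions of the 10 genes summed to 61.8 and 56.9 RPM. Of the Kupffer cell list 5 of 8 genes had a region, with a median of 0.36 over 8 regions and summed signals of 14.3 and 6.67 RPM. Marco, named here after its values were seen, accounted for much of that sum with 463 and 35 counts. Of the others, C1qa had 8 and 40 counts, Clec4f 12 and 29, Csf1r 150 and 192, and Adgre1 125 and 91, so the lower sum rests on Marco, and no region was listed under the symbols of Cd5l, Timd4 and Vsig4. Regions were listed for 2 of 8 stellate cell genes (median −0.02 over 3 regions, 15.1 and 4.76 RPM, with none for Lrat, Dcn, Des, Pdgfrb, Colec11 and Ngfr), 3 of 6 cholangiocyte genes (0.20 over 8 regions, 21.2 and 19.3 RPM, with none for Krt19, Krt7 and Cftr) and 1 of 8 lymphocyte genes. The lower stellate cell sum rests on 1 promoter region, that of Reln, with 690 and 132 counts, whereas Lhx2 had 107 and 144. The lymphocyte gene was Cd8a, with ratios of −0.08 and 2.09 at its 2 regions and 1.06 and 1.38 RPM in sum. In whole liver, a change in the share of nuclei that were endothelial and a change in accessibility per endothelial nucleus cannot be told apart, and their part in these ratios was not tested.

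**Figure D4:**
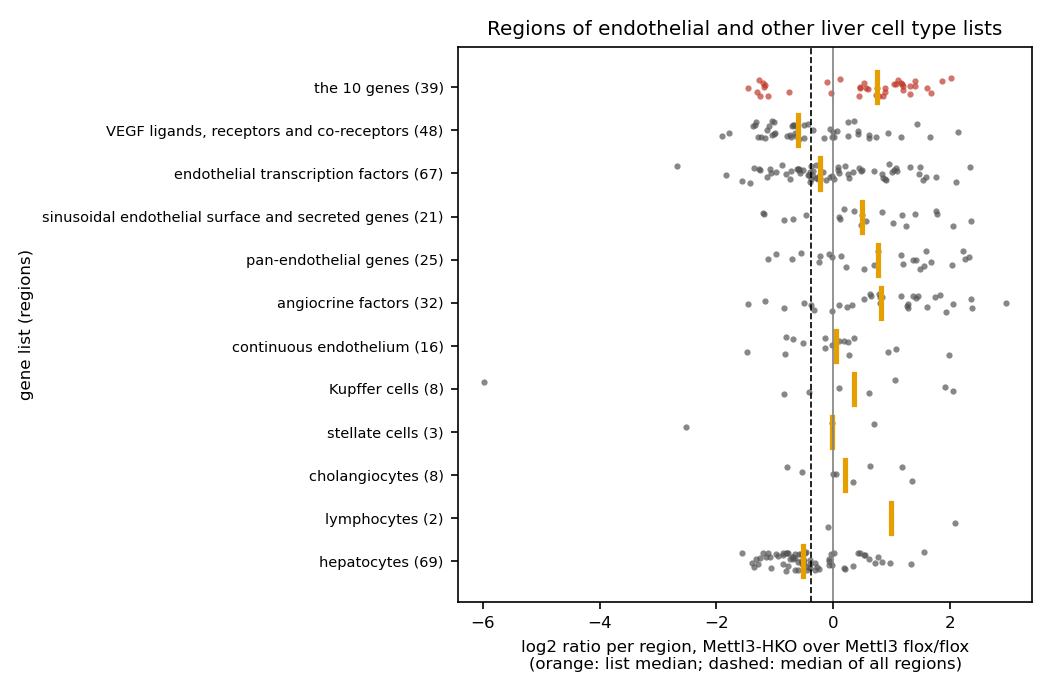
Log2 ratio of every region (x axis) of the 10 genes (red) and of 11 lists of other endothelial and liver cell type genes (grey), with the number of regions in brackets on the y axis, orange bars for list medians and a dashed line for the median of all regions. The medians of the 10 genes, the pan-endothelial genes and the angiocrine factors lie at 0.75, 0.77 and 0.83, and that of the hepatocyte genes at −0.52, beside −0.38 for all regions.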

How the data were processed

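ATAC-seq of 1 pooled liver library per genotype was analysed, grouped by the genotype labels. The authors trimmed adaptors with skewer, aligned reads with BWA to GRCm38, filtered them and called peaks in each library with MACS2, keeping duplicates. Any shift of reads to the transposase cut, and the counting of reads over merged peaks, are not given in the sources used here. Per the file headers, the authors deposited for each region a raw count, an RPM value (the count plus 1, scaled to the library total), a fold enrichment, which is a ratio of reads per base to the genome mean, and their own log2 fold change, which was not used.

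Of 74821 rows, 5272 repeated a region and were dropped. Starts were converted to count from 1. On regions lay 31.7% of the Mettl3 flox/flox total and 22.3% of the Mettl3-HKO total. Members were matched by symbol, and no blank symbol had the Ensembl identifier of a member. Of 27433 closest genes, 14588 had a symbol, so list genes could be missed. The members and lists were chosen with earlier results of these data known. Ratios used 1 added read, with 95% Clopper-Pearson intervals and no p-value, since count tests need replicates. Calls were a 2-fold difference. For each gene, all promoter regions, the strongest region and the highest and lowest ratio were named, and all regions of genes with up to 4, and in each endothelial list the genes with the highest and lowest median. The Mettl3 promoter region had 566 and 392 counts, which does not check the deletion of exons. RefSeq start windows were those of GRCm38.p6. Scripts were tested on simulated counts. Alternatives to scaling, added reads, signal filter, threshold, distance, peak calls and neighbours are given in the closing section. Scripts ran in Python 3.11.15 with scipy 1.17.1, pandas 2.3.3 and numpy 2.4.6, and figures were drawn in matplotlib 3.10.9.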

Additional observations from a re-analysis of the deposited data

How the results depend on the processing

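The median ratio of the 39 regions was above 0 under each alternative run except in the upper 50% of mean signal, where it was −0.61, with −0.11 at the promoter regions, −0.085 relative to regions of the same signal and 0 regions at least 2-fold higher. With a peak in both libraries the median was 0.11, with 3 regions 2-fold higher or more. The count of 15 higher regions also moved to 24 after scaling by the reads on regions, to 6 with 10 reads added, to 8 within 50 kb of the TSS and, in an alternative chosen after seeing the data, to 9 without Erg. The count of 8 lower regions moved to 1 after centring on all regions, to 0 after scaling by the reads on regions and, again in a choice made after seeing the data, to 4 without Oit3. Centring and scaling by the reads on regions each turned the sign of 2 ratios, both with intervals that held 0. Leaving out regions inside the RefSeq gene, also chosen after seeing the data, moved the median outside the own gene from −0.11 to −0.94. At a 1.5-fold threshold 22 regions were higher and 9 lower. The median difference from regions of the same signal, 0.79, fell to 0.26 with neighbours that had a peak in the same libraries. It fell to 0.43 with neighbours matched on the signal of the control library alone. Fewer neighbours gave 0.77, more gave 0.80, and neighbours of the same class of distance gave 0.83. No paired analysis was possible because each group has 1 library. Depth limits what the weakest regions show, since the Oit3 region with the fewest reads had 12 and 31 counts.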

Other observations

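A further 13 regions overlapped 6 of the 10 genes but were closest to the TSS of another gene, and they are not among the 39. Of these, 8 had a ratio above 0 and 5 below, with a median of 0.47, and 4 were at least 2-fold higher, all with a peak in the HKO library only. Of all 15299 regions that lie in a gene other than that of the closest TSS, 42.3% had a ratio above 0 and 16.2% were at least 2-fold higher. In the 3′ part of Erg, a region in the 3′ UTR had 12 counts in the control library and 53 in the HKO library, with a ratio of 1.92 (1.08 to 3.05, counting interval), and one in intron 7 had 16 and 67 counts, a ratio of 1.86 (1.13 to 2.82). The remaining Erg region, in its last intron, had 80 and 83 counts and a ratio of −0.08 (−0.54 to 0.38). In intron 23 of Flt1 counts were 10 and 35, a ratio of 1.57, and in the last intron of Rspo3 they were 16 and 56, a ratio of 1.61. The last exon of Flt4 held a region with 147 and 79 counts, a ratio of −1.02 (−1.44 to −0.63), opposite in direction to the intron 1 regions of the gene. Lower as well were the regions with a peak in the control library only, in intron 1 of Rspo3 with 37 and 21 counts, a ratio of −0.92 (−1.80 to −0.14), and in intron 2 of Gata4 with 45 and 25 counts, a ratio of −0.96 (−1.75 to −0.25).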
